A study of Mus musculus with 8 samples.

Results

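The transcriptomes of 2 mouse C10 lines were compared after 24 h of induction. One line was labelled as a Tet2 knockdown and the other was its control. The comparison rests on the 4 induced arrays of a series of 8, with 2 arrays per line, and takes in every probe that was not a control spot. C10 cells descend from the HAFTL pre-B cell line and carry C/EBPα in a form that can be switched on. Both lines carried a short hairpin RNA, a control hairpin in one and a hairpin against Tet2 in the other. Induction was with β-estradiol at 100 nM, together with IL-3 and M-CSF at 10 ng/ml each, and both induced groups received all 3 agents. The 4 remaining arrays are the same lines at 0 h, and they are used here to show which differences were present before induction. Each hairpin is represented by 1 line, and the series design calls the 2 arrays of a group technical duplicates. The p-values below rest on duplicate arrays and hold no culture-to-culture error, and a difference that belongs to the hairpin and one that belongs to the line cannot be told apart.

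C/EBPα is a transcription factor of the granulocyte and macrophage lineages, and its activation in pre-B cells turns them towards macrophage-like cells. TET enzymes oxidise methylated cytosine in DNA, a step towards the removal of the methyl group. Much of the comparison concerns the interferon response. Type I interferons bind a receptor at the cell surface whose kinases phosphorylate STAT proteins, and a complex that holds STAT2 and IRF9 then binds a short DNA element, the interferon-stimulated response element (ISRE), in front of antiviral genes.

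The Tet2 probe that was tested was not lower in the arrays labelled knockdown. On the log2 scale used throughout, where 0 is the 75th percentile of an array's probe signals, the Tet2 probe at chr3:133126751-133126810 (mm9) read -0.03 and 0.01 in the control line at 24 h and -0.07 and 0.06 in the line labelled knockdown. The difference was 0.01 ± 0.10 (standard error of the limma fit, n = 2 arrays per group), with an adjusted p of 0.982 in limma. A neighbouring probe at chr3:133126905-133126964 differed by 0.16. A probe farther along the gene, at chr3:133176421-133176479, stood well above background on 2 of the 4 induced arrays and was not tested. It read -4.68 and -4.36 in the control line and -5.01 and -5.40 in the line labelled knockdown, a difference of -0.68 with the groups apart. The arrays do not show whether the protein was reduced, so the line is called knockdown-labelled below. The other enzymes of the family also did not pass the test. Tet1 differed by -0.15 ± 0.36 (limma adjusted p = 0.836) and Tet3 by 0.14 ± 0.19 (adjusted p = 0.67). On 0 of the 8 arrays did the Cebpa probe stand well above background, so its transcript has no value here.

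The defining markers of both cell states were measured in both induced groups. The macrophage markers Csf1r, Lyz2, Cd14 and Mpeg1 had mean levels of 6.13 to 8.32 in the control line at 24 h and 6.28 to 8.42 in the knockdown-labelled line, and 0 of the 6 defining macrophage markers tested was called. The pre-B markers Vpreb1, Igll1 and Cd79a had means of 4.44 to 6.89 in the control line and 4.85 to 7.59 in the knockdown-labelled line, so pre-B transcripts were still present in both lines. None of the 7 defining pre-B markers was called. Per array, 47.4% to 54.7% of the probe spots were well above background at 24 h. The 75th percentile of the signal was 1094 and 1251 intensity units on the control arrays and 722 and 896 on the knockdown-labelled arrays, a gap between the groups that the scaling removes. Duplicate arrays correlated across genes with r = 0.993 in the control line and r = 0.994 in the knockdown-labelled line, and 2 arrays per group set the precision. Between the 2 duplicates, 693 genes differed at least 2-fold in the control line at 24 h and 559 in the knockdown-labelled line.

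Of 16151 genes tested, 168 (1.04%) were at least 2-fold higher in the knockdown-labelled line at 24 h with an adjusted p under 0.05 in limma, and 161 (0.997%) were at least 2-fold lower. A gene is called below if it met both conditions. Each of the 168 and each of the 161 had the same direction on both slides, and 140 and 134 of them differed at least 2-fold on both. The median difference over all genes was 0.04. The calls in a gene group are set against these 2 shares below, and the lists and genes were chosen with earlier results of these data known. With no fold minimum, 7.39% of all genes passed the adjusted p on the higher side and 6.45% on the lower side. Leaving out 1 of the 4 induced arrays gave 127 to 163 higher and 108 to 139 lower calls, and 91 of the 168 and 69 of the 161 were called in all 4 of those fits.

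**Figure D1:**
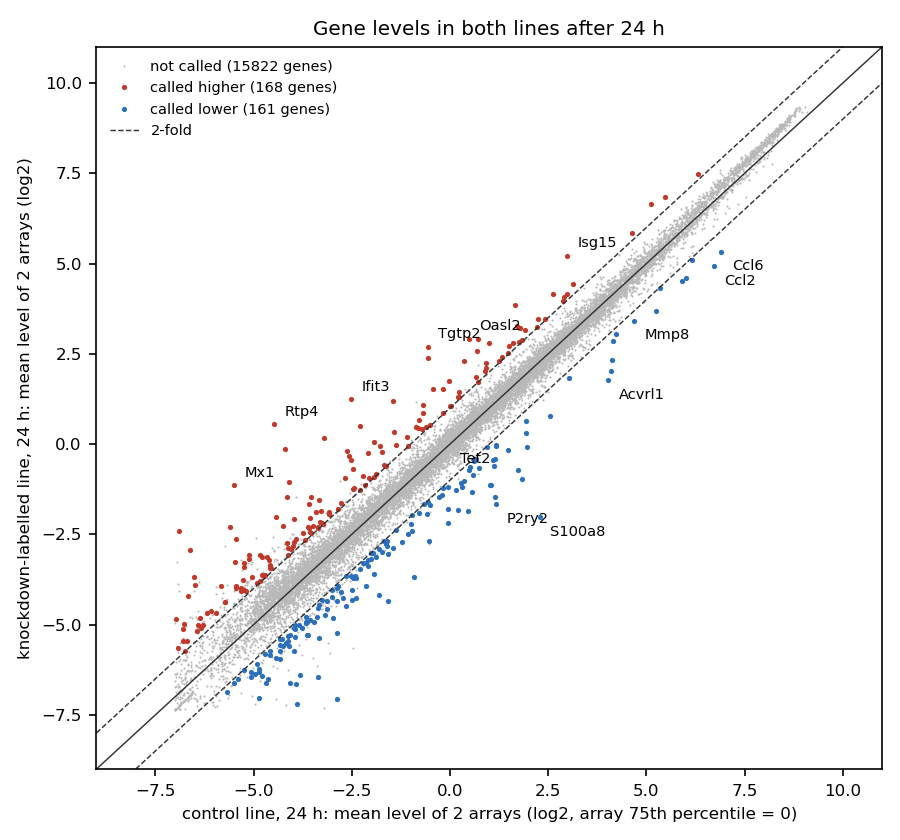
Mean log2 level of each of the 16151 genes in the control line (horizontal axis) and the knockdown-labelled line (vertical axis) after 24 h, each the mean of 2 arrays, with the array's 75th percentile at 0. The 168 genes called higher and the 161 called lower lie beyond the dashed 2-fold lines, with Rtp4, Mx1 and Ifit3 among the farthest above the diagonal, S100a8 farthest below it among the labelled genes, and Tet2 on it.

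Interferon-induced antiviral genes made up the top of the higher side. Of 37 tested members of a list of 42 antiviral effectors, 25 were called higher and 0 lower, beside 1.04% of all genes tested, and the list's median difference was 1.76 beside 0.04 over all genes. At 0 h the same list had a median of -0.18. The largest difference belonged to Rtp4, a protein first described as a chaperone of membrane receptors and induced by interferon. Its probe, at chr16:23613668-23613727 (mm9), read -4.53 and -4.43 in the control line and 0.54 and 0.59 in the knockdown-labelled line. That is 32.9-fold higher (5.04 ± 0.22, adjusted p = 7.79e-04 in limma), with 1 of the 2 control arrays well above background.

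The IFIT proteins bind viral RNA that lacks the host's cap marks. Ifit3 read -2.66 and -2.38 in the control line and 1.19 and 1.29 in the knockdown-labelled line, 13.5-fold higher (3.76 ± 0.14, adjusted p = 4.21e-04 in limma). Its near copy Ifit3b read -4.19 and -4.22 against -0.15 and -0.10, 16.9-fold higher. Ifit1 read -4.09 and -4.12 against -1.0 and -1.11, 8.27-fold higher. For each of these genes the 2 knockdown-labelled arrays lay well above both control arrays, by far more than the gap between duplicates. The IFIT genes are close copies of one another, and no probe was searched against other transcripts here, so part of a signal may be shared between Ifit3 and Ifit3b.

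The MX proteins are GTPases that trap viral particles. Mx1 was not well above background on either control array and read -1.20 and -1.07 in the knockdown-labelled line. Under the main processing this gives a bound of at least 11.6-fold higher. The bound sets the brighter group against the lowest signal that was well above background on each dim array. Such a bound holds for the main processing only. With normexp background the fitted difference of Mx1 was 2.51 on the log2 scale, under its bound of 3.54. Mx2 was measured on all 4 arrays, at -2.31 and -2.28 against 0.50 and 0.49, 6.92-fold higher (2.79 ± 0.20, adjusted p = 0.00227 in limma). Cmpk2, a mitochondrial nucleotide kinase next to the antiviral gene Rsad2, was at least 5.16-fold higher by this bound. Ifit1bl1 was at least 4.86-fold higher, and neither gene had a control array well above background. With normexp background their fitted differences were 1.62 and 1.87, under their log2 bounds of 2.37 and 2.28.

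The OAS enzymes make a short oligoadenylate that activates an RNA-cutting nuclease. The related Oasl2 read 0.48 and 0.48 in the control line and 2.91 and 2.92 in the knockdown-labelled line, 5.42-fold higher (2.44 ± 0.07, adjusted p = 4.21e-04 in limma). Oas2, Oas3, Oas1a and Oas1g were called as well, with fitted differences of 1.38 to 2.59, Oas3 and Oas1g with no control array well above background. Oasl1 (0.91) and Oas1b (0.24) passed the adjusted p but were under 2-fold. Xaf1 (2.20), Phf11d (1.90), Isg20 (1.10), an exonuclease, and Trim30a (1.05) were called too.

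Not every antiviral gene was called. Rsad2, which makes a chain-terminating nucleotide, differed by 2.45 with an adjusted p of 0.0659 in limma. Its control arrays lay apart at -3.48 and -4.37, and its knockdown-labelled arrays read -1.54 and -1.42. Parp14 (0.99), Samd9l (0.94), Bst2 (0.94), which tethers budding virus, Parp9 (0.88) and Eif2ak2 (0.83), the kinase PKR, passed the adjusted p but were under 2-fold. Sp100, Ifi27 and Ms4a4c did not pass. In the 4 fits that each left out 1 induced array, 21 or 22 members of the list were called. Apol9b, Slfn5 and Lgals3bp were called in none of those 4 fits, with adjusted p of 0.0558 to 0.125 in limma. With only genes well above background on all 4 induced arrays, 16 members were called.

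**Figure D2:**
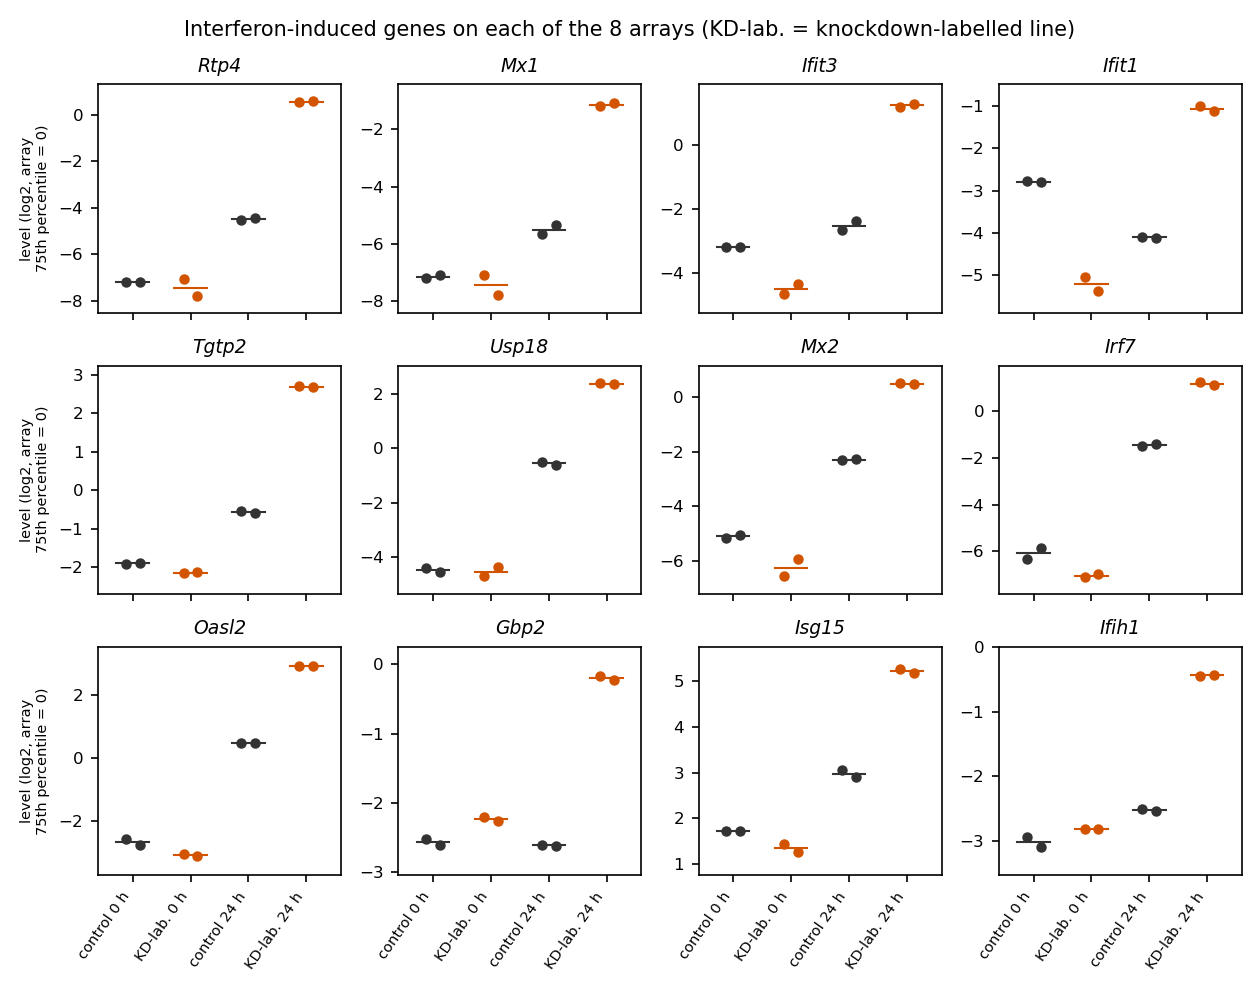
Log2 level (vertical axis, array 75th percentile at 0; scales differ between panels) of 12 interferon-induced genes on each of the 8 arrays, with points for arrays, bars for the mean of 2 arrays, and columns for the control and knockdown-labelled line at 0 h and at 24 h. In each panel both knockdown-labelled arrays at 24 h lie above the other 6; Ifit3 reads 1.19 and 1.29 there and -2.66 and -2.38 in the control line at 24 h.

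The stretches upstream of several of these genes are shown because the 10-letter ISRE core recurs in them. The core searched was GAAANNGAAA on both strands, in RefSeq windows of 300 bases (250 before the start and 50 after it, build GRCm38.p6), and matches are in capitals, with the sequence written 5′ to 3′ along the gene's strand. Overlapping matches run together, as in Isg15.
Ifit3, chr19:34583353-34583436, plus strand: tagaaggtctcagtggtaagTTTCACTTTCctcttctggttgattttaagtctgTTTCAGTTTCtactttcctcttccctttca
Ifit3b, chr19:34607749-34607832, plus strand: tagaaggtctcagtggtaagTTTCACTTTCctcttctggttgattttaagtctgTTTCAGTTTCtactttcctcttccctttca
Ifit1, chr19:34640765-34640833, plus strand: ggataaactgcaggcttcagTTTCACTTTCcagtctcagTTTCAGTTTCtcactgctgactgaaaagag
Isg15, chr4:156200855-156200916, minus strand: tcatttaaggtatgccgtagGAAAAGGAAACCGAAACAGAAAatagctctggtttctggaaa
Gbp2, chr3:142620584-142620633, plus strand: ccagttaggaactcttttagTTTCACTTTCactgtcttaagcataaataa
Tgtp2, chr11:49064253-49064302, minus strand: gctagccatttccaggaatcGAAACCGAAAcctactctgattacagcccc
Ifi208, chr1:173673587-173673636, plus strand: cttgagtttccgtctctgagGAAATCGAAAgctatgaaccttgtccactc

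The Ifit3 and Ifit3b stretches are the same 84 letters. Of the 168 genes called higher, 109 matched a promoter window, and 24.8% of these (27 genes) held the ISRE core. It was held by 3.8% of the 9741 tested genes with a window and by 9.72% (7 of 72) of the genes called lower that had one. Among the 38 called members of the antiviral, ISG15, GTPase and p200 lists, 20 of the 30 with a window held it. The other called-higher genes held it in 7 of 79 windows. Other elements were searched in the same way. TTGCNNAAT, a C/EBP element, was in 1.83% of the called-higher and 5.56% of the called-lower windows, beside 2.06% of tested genes. TGANTCA, the AP-1 element, was in 13.8% and 13.9%, beside 6.38%. These shares count letters in a short window and carry no test.

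ISG15 is a small ubiquitin-like protein that interferon induces and that is joined to other proteins by its own enzymes. All 6 tested genes of this system were above 0 in the difference, and 3 of 6 were called higher. Isg15 itself read 3.05 and 2.90 in the control line and 5.26 and 5.18 in the knockdown-labelled line, 4.73-fold higher (2.24 ± 0.09, adjusted p = 5.02e-04 in limma). Usp18, the protease that removes ISG15 and dampens the interferon receptor, read -0.49 and -0.60 against 2.38 and 2.37, 7.61-fold higher. Ube2l6, the conjugating enzyme, was 2.31-fold higher. Herc6, the ligase (0.99), and Uba7, the activating enzyme (0.78), passed the adjusted p but were under 2-fold, and Trim25 (0.17) did not pass.

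The interferon-inducible GTPases attack the membranes around intracellular microbes. Of 12 tested members, 6 were called higher and 0 lower, with a list median of 1.09. Tgtp2 read -0.55 and -0.58 in the control line and 2.70 and 2.69 in the knockdown-labelled line, 9.55-fold higher (3.26 ± 0.05, adjusted p = 6.82e-05 in limma). Gbp2 read -2.61 and -2.62 against -0.16 and -0.23, 5.35-fold higher. Gbp5 was 3.81-fold higher, and Gbp3, Irgm2 and Irgm1 differed by 1.32, 1.28 and 1.19. Igtp (0.99), Gbp9 (0.88) and Gvin1 (0.79) passed the adjusted p but were under 2-fold. Each of the 6 calls was made in all 4 fits without 1 array.

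The sensors of foreign nucleic acid were called in part. Ifih1, the double-stranded RNA sensor MDA5, read -2.50 and -2.53 in the control line and -0.45 and -0.43 in the knockdown-labelled line, 4.22-fold higher. Dhx58, the related LGP2, was 2.53-fold higher, and Ddx58, which encodes RIG-I, differed by 0.69 and passed the adjusted p only. The adaptors Mavs (-0.08), Sting1 (0.21) and Myd88 (0.04) did not pass. Of 8 tested p200 and AIM2 genes, which encode DNA-binding proteins of inflammasomes and of interferon signalling, 4 were called higher. They were Ifi207 (1.68), Ifi204 (1.23), Ifi208 (1.19) and Aim2 (1.01). These 4 calls were not stable. Without 1 of the control arrays 0 (slide 1) or 1 (slide 2) of them was called, and without 1 of the knockdown-labelled arrays 1 (slide 1) or 0 (slide 2). Members of this family are also close copies of one another.

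Among the factors that carry the interferon signal, 3 of 21 tested were called higher. Irf7, which amplifies type I interferon production, read -1.48 and -1.40 in the control line and 1.25 and 1.12 in the knockdown-labelled line, 6.18-fold higher (2.63 ± 0.16, adjusted p = 0.00148 in limma). Stat2 read 2.23 and 2.21 against 3.24 and 3.26, 2.04-fold higher (under 2-fold with normexp background or median scaling, at 0.99 and 0.96), and Irf9, its partner, was just under 2-fold at 0.93. Irf1 differed by 0.69 and passed the adjusted p only. Jak1 (-0.10), Tyk2 (0.02), Irf3 (0.13) and Irf5 (-0.03) did not pass.

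Interferon transcripts themselves gave no call. On 0 of the 8 arrays did the probes for Ifnb1, Ifna4 or Ifng stand well above background. Ifna1 differed by 0.12 (adjusted p = 0.921) and Ifna2 by 0.09 (adjusted p = 0.953), both with wide gaps between duplicates. The receptor chains Ifnar1 (-0.14), Ifnar2 (-0.17), Ifngr1 (0.15) and Ifngr2 (0.27) did not pass the test in limma. Of 12 SOCS and phosphatase inhibitors of the pathway 0 were called. Socs3 (-0.58) and Socs6 (-0.68) passed the adjusted p on the lower side, as did 6.45% of all genes.

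MHC class I presentation genes shifted by a smaller amount. Of 22 tested, 17 passed the adjusted p on the higher side, beside 7.39% of all genes, and the list's median was 0.44. Psmb9, an immunoproteasome subunit (0.76), Tap1, a peptide transporter (0.73), B2m (0.43) and H2-K1 (0.45) were among them. H2-T24 was called, at least 4.10-fold higher under the main processing, with no control array well above background and control duplicates at -5.91 and -4.96. With normexp background its difference was 1.43, under its log2 bound of 2.04. That call was lost with the slide as a block (adjusted p = 0.0523) and without any 1 of the 4 arrays (0.112 to 0.192). In class II presentation, H2-Eb1 was 2.05-fold higher (under 2-fold at 0.99 without control array 1, at 0.98 with normexp background and at 0.97 with median scaling) and H2-Ab1 differed by 0.69.

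The Ifitm genes, which encode membrane proteins that hinder virus entry, did not share the pattern. Ifitm1 was lower, at 6.04 and 5.98 in the control line and 4.60 and 4.62 in the knockdown-labelled line, 2.63-fold lower (-1.39 ± 0.23, adjusted p = 0.0195 in limma). Without any 1 of the 4 arrays its adjusted p was 0.0901 to 0.0989. Ifitm2 (-0.12) and Ifitm3 (0.83, adjusted p = 0.337) did not pass.

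Outside the interferon lists, Tnfsf10, Slamf9, Fcgr1 and C4b were among the genes called higher. Tnfsf10, the death ligand TRAIL, read -4.39 and -4.09 in the control line and -2.32 and -2.23 in the knockdown-labelled line, 3.92-fold higher, with 1 control array well above background. Slamf9, a surface receptor of the SLAM family, was 2.49-fold higher. Fcgr1, the high-affinity IgG receptor, was 2.22-fold higher, with an adjusted p of 0.00963 that rose to 0.0524 to 0.0611 without any 1 of the 4 arrays. The complement gene C4b was 3.48-fold higher, with 0.0583 to 0.0705 in the same fits.

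S100a8, which encodes one chain of calprotectin, an abundant protein of neutrophils and monocytes, had the largest difference among the lower genes. Its probe, at chr3:90473778-90473837 (mm9), read 2.26 and 2.30 in the control line and -1.97 and -2.06 in the knockdown-labelled line, 19.7-fold lower (-4.30 ± 0.39, adjusted p = 0.00398 in limma). At 0 h neither line had an S100a8 array well above background, so the transcript was measured at 24 h only. Of 14 tested granule proteins, 3 were called lower beside 0.997% of all genes, and the others lay at 0.59 or below in size, with Serpinb1a, a protease inhibitor (0.45), passing the adjusted p on the higher side. Mmp8, the neutrophil collagenase, was 2.40-fold lower and Mmp9, a gelatinase, 2.38-fold lower. S100a8 alone was called in each of the 4 fits without 1 array, where the adjusted p of Mmp8 was 0.0946 to 0.105 and of Mmp9 0.0745 to 0.116. Camp (0.59), Lyz2 (0.10), Elane (-0.10), Lcn2 (-0.28) and Prtn3 (-0.32) did not pass.

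Chemokines attract leukocytes. Of 10 tested, 4 were called lower and 0 higher, 1 was above 0, and the median was -0.75. The list's median was lower still before induction, at -1.20, with 6 of 10 called lower at 0 h, beside 1.39% of all genes. Its members went both ways between the 2 times, with the change called for 2 in the higher and 2 in the lower direction. At 0 h Ccl2 differed by -2.51, but Ccl6 by -0.56 and Ccl7 by -0.29, less than at 24 h. Neither line had a Ccl7 array well above background at 0 h, nor the knockdown-labelled line a Ccl2 array. Ccl7 read -0.50 and -0.55 in the control line and -2.63 and -2.72 in the knockdown-labelled line, 4.45-fold lower (-2.15 ± 0.19, adjusted p = 0.00398 in limma). The monocyte attractant Ccl2 read 6.75 and 6.68 against 4.98 and 4.90, 3.43-fold lower. Ccl6 read 6.95 and 6.87 against 5.36 and 5.30, 2.99-fold lower. Ccl5 differed by -1.09. Without control array 1, Ccl2 had an adjusted p of 0.052 and 2 of the 4 were called; Ccl5 had 0.144 to 0.181 without any 1 array. Ccl3 (-0.27), Ccl4 (-0.52) and Ccl12 (0.08) did not pass.

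Cytokines with a difference in the same direction were Csf2 and Ebi3. Csf2, which encodes the growth factor GM-CSF, read -0.02 and -0.08 in the control line and -2.14 and -2.24 in the knockdown-labelled line, 4.40-fold lower. Ebi3, a subunit of interleukins 27 and 35, was 2.44-fold lower. Il6 (-0.72) and Csf1 (-0.50) passed the adjusted p but were under 2-fold. Tnf (-0.32), Il1b (-1.0, adjusted p = 0.078) and Spp1 (-2.24, adjusted p = 0.172) did not pass.

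Several receptors of phagocytes were lower. Clec4d, a C-type lectin that binds mycobacterial glycolipid, read 1.81 and 1.84 in the control line and -1.08 and -0.83 in the knockdown-labelled line, 6.88-fold lower. Its partner Clec4e (-1.82), the class A scavenger receptor Msr1 (-1.84) and Stab1 (-1.86), a scavenger receptor of endothelium and macrophages, were called as well, so 4 of 14 tested lectins and scavenger receptors were lower. Without control array 1 the count was 2. Msr1 and Stab1 each had 1 knockdown-labelled array well above background. With normexp background neither was called, at -0.44 (adjusted p = 0.395 in limma) and -0.63 (0.0867), nor in the deposited values, at -0.67 and -0.86. Clec7a, the β-glucan receptor (0.49), passed the adjusted p on the higher side, and Mrc1, the mannose receptor (-0.60), on the lower side.

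Lilrb4a, an inhibitory immunoglobulin-like receptor, read 4.17 and 4.04 in the control line and 2.07 and 1.95 in the knockdown-labelled line, 4.26-fold lower. Its copy Lilr4b was 4.53-fold lower, and the probes may share signal. These were the 2 calls among 15 tested receptors of the list, with Pirb at 0.03 and Siglece at 0.00. P2ry2, a receptor for extracellular ATP and UTP, read 1.14 and 1.20 against -1.79 and -1.53, 7.11-fold lower (-2.83 ± 0.23, adjusted p = 0.00294 in limma). Tnfsf14, the ligand LIGHT, read 1.22 and 1.09 against -1.39 and -1.53, 6.13-fold lower. Acvrl1, a receptor of the TGF-β family, read 4.09 and 3.97 against 1.82 and 1.74, 4.78-fold lower, with an adjusted p of 0.00694 that was 0.052 without control array 1. Ltb4r1, the leukotriene B4 receptor, was 5.48-fold lower, with 0.0599 to 0.0755 without any 1 of the 4 arrays. Plin3, a lipid droplet coat protein, read -0.85 and -0.96 against -3.58 and -3.80, 6.90-fold lower.

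Metalloproteases that cut the extracellular matrix formed another group, chosen after its values were seen. Of 13 tested Mmp genes 5 were called lower and 0 higher, beside 0.997% of all genes called lower. The macrophage elastase Mmp12 read 1.01 and 1.04 in the control line and -1.05 and -1.20 in the knockdown-labelled line, 4.44-fold lower. Mmp1a (-1.50) and Mmp13 (-1.29) were called beside Mmp8 and Mmp9, which were already counted among the granule proteins. Without any 1 of the 4 arrays, Mmp12 and Mmp13 were the 2 still called, and Mmp1a had an adjusted p of 0.0538 to 0.0653. Mmp23 (0.74), Mmp14 (0.43) and Mmp11 (0.37) passed the adjusted p on the higher side.

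**Figure D3:**
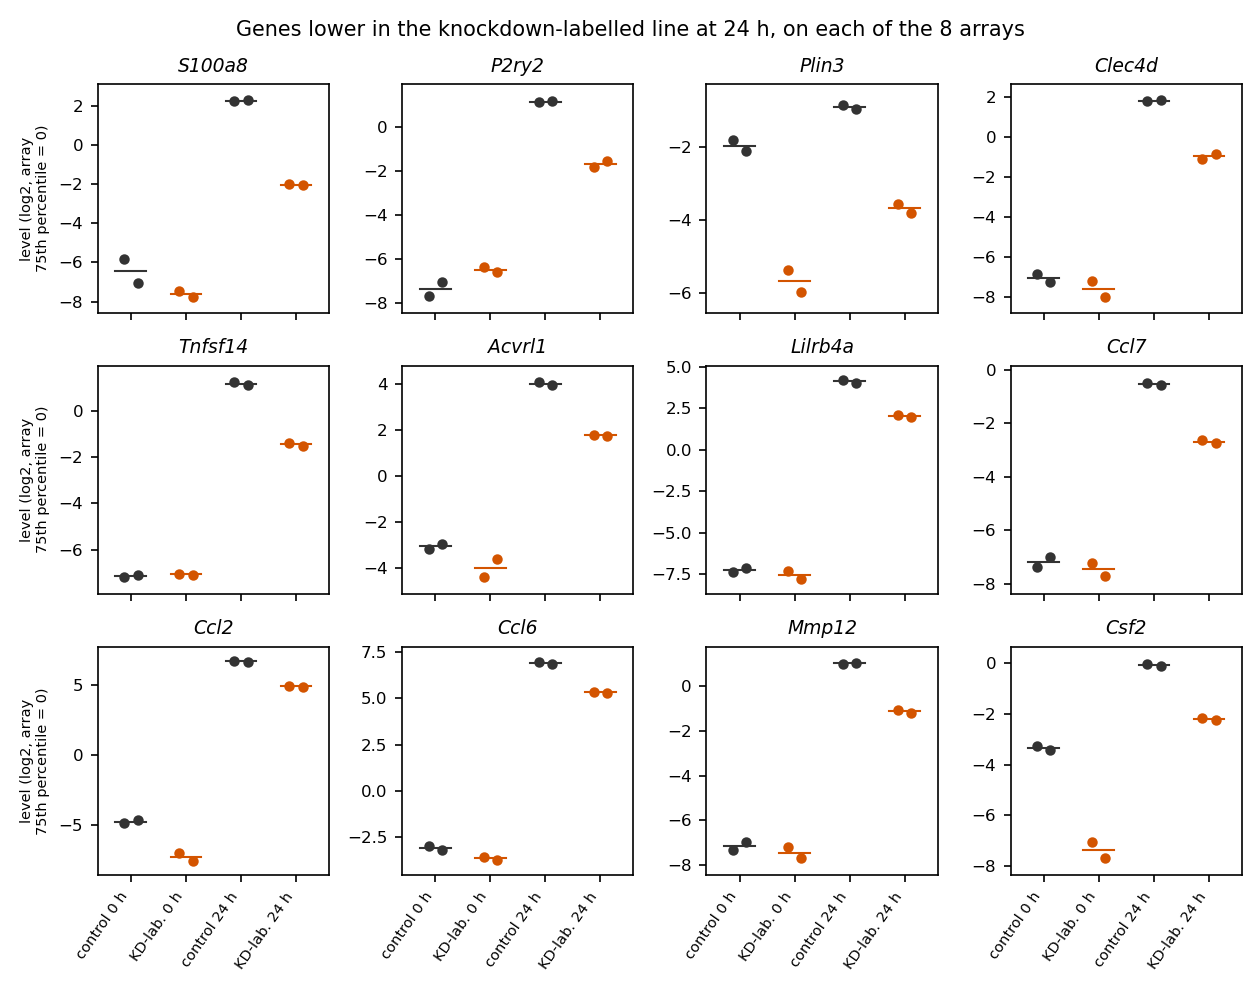
Log2 level (vertical axis, array 75th percentile at 0; scales differ between panels) of 12 genes lower in the knockdown-labelled line at 24 h on each of the 8 arrays, with points for arrays and bars for the mean of 2 arrays. Plin3 and Csf2 were also lower at 0 h, while S100a8 reads 2.26 and 2.30 in the control line at 24 h and -1.97 and -2.06 in the knockdown-labelled line.

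Most lists of myeloid and B cell genes held few or no calls. Of 34 tested myeloid transcription factors, 2 were called lower, beside 0.997% of all genes. They were Bhlhe40, a repressor of the basic helix-loop-helix class (-1.49), and Tfec, of the MiT class (-1.01). Tfec was under 2-fold without control array 2 (-0.98) and without knockdown-labelled array 1 (-0.94), in the deposited values (-0.70) and with normexp background, where it also missed the adjusted p (-0.56, adjusted p = 0.0721 in limma). Spi1, which encodes PU.1 (0.18), Cebpd (0.32), Fos (-0.06) and Runx1 (-0.02) did not pass the test. On the lower side 10 of the 34 passed the adjusted p, the 2 called genes included, beside 6.45% of all genes. Cebpb (-0.42) and Id2 (-0.68) were among these 10 but were under 2-fold. On the higher side 5 of the 34 passed it, beside 7.39% of all genes. In the phagocyte oxidase list 0 of 9 were called and 0 passed the adjusted p. In the lysosomal list 0 of 26 were called. On the higher side 9 passed the adjusted p, beside 7.39% of all genes, with Acp5 (0.61) and Grn (0.54) among them. Ctsd (-0.68) passed on the lower side. In the Toll-like receptor list 0 of 10 were called, with Tlr4 at -0.64 and Ly86, a co-receptor, at 0.94. Csf1r, the receptor for the M-CSF of the medium, differed by 0.26 (adjusted p = 0.438). Among myeloid surface antigens, Itgax (-1.16), the integrin CD11c, and the co-stimulator Cd80 (-1.21) were called lower, with adjusted p of 0.06 to 0.156 without any 1 of the 4 arrays over both genes.

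Of 25 tested B lineage transcription factors 0 were called. On the higher side 6 passed the adjusted p, beside 7.39% of all genes, with Bach2 at 0.87, Id3 at 0.76, Irf4 at 0.71 and Myb at 0.45. Pax5 (0.10) and Ebf1 (0.10) did not pass. Of 23 tested pre-B receptor, recombination and B cell antigen genes 0 were called. The adjusted p was passed by 7 on the higher and 3 on the lower side, beside 7.39% and 6.45% of all genes. The surrogate light chain genes Vpreb1 (0.71), Vpreb2 (0.72), Vpreb3 (0.62) and Igll1 (0.42) and the polymerase Dntt (0.54) passed the adjusted p on the higher side, and Rag1 (-0.45) and Cd24a (-0.78) on the lower side. Most members of the S phase and of the G2 and M lists lay below 0, with medians of -0.08 and -0.19. In the S phase list, 1 of 28 was called, Ccne1, which encodes cyclin E1 (2.13-fold lower, adjusted p = 0.00152 in limma). Above 0 were 6 of 28 there and 7 of 28 in the G2 and M list, which held Mki67 (-0.48). The adjusted p was passed on the lower side by 7 and 4 of these genes, beside 6.45% of all genes. On the higher side 0 passed in either list, beside 7.39% of all genes. In the list of inhibitors and p53 targets, Pmaip1, the death protein NOXA, was called higher (1.03), with Cdkn2c at 0.93 and Bbc3 at 0.83 under 2-fold. Pmaip1 was under 2-fold without control array 1 (0.99), with normexp background (0.91), in the deposited values (0.91) and with median scaling (0.96, adjusted p = 0.0582 in limma). Of 27 TET, DNMT and methyl-reading genes 0 were called. Apobec1, a cytidine deaminase (0.89), Idh1 (0.44), Mbd4 (0.43) and Gadd45g (0.40) passed the adjusted p on the higher side. Mbd2, a methyl-CpG binding protein (-0.51), passed on the lower side. These were 4 and 1 of 27, beside 7.39% and 6.45% of all genes. Dnmt3l, a cofactor of de novo methylation, had the lowest value (-1.56, adjusted p = 0.11), and Dnmt1 (-0.01), Dnmt3a (0.02) and Tdg (0.00) lay at 0.

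The tested probes of the abundant reference transcripts Actb (0.38 ± 0.23, adjusted p = 0.333 in limma) and Gapdh (0.32 ± 0.15, adjusted p = 0.23) were above 0 with the 75th percentile scaling. They were just below 0 with quantile normalization or in the deposited values. With the mean over its kept probes, Gapdh stood at 0.02 under the 75th percentile scaling. Of 15 reference genes 0 were called, and their median was 0.11.

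**Figure D4:**
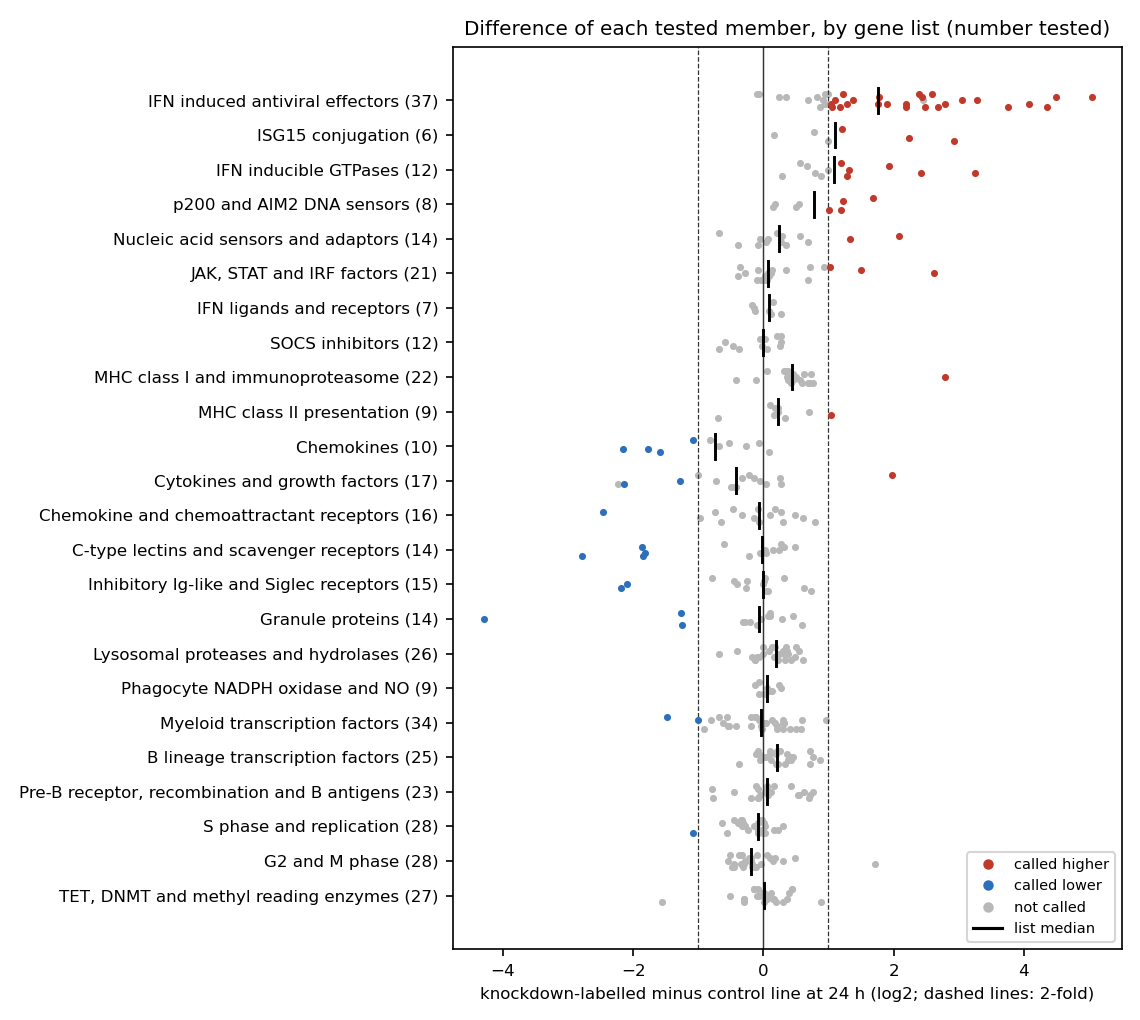
Difference between the knockdown-labelled and control line at 24 h (horizontal axis, log2) for each tested member of 24 gene lists, with 1 point per gene, red for called higher, blue for called lower, grey for not called, and a black bar at the list's median. The medians of the antiviral effectors (1.76), ISG15 genes (1.10) and inducible GTPases (1.09) lie above the 2-fold line at 1, and the chemokine median (-0.75) lies farthest below 0.

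The same lines were compared at 0 h, on arrays that the 24 h comparison does not share. There, 53 genes (0.328%) were called higher and 225 (1.39%) lower, in all 1.72%, beside 2.04% at 24 h. Of the 161 genes lower at 24 h, 20 were also lower at 0 h (12.4% of the first list, 8.89% of the second). Of the 168 higher at 24 h, 14 were also higher at 0 h (8.33% and 26.4%), and 11 genes were called in opposite directions. The difference between the 24 h and the 0 h differences was tested itself. It was called for 111 of the 168 in the higher direction and for 104 of the 161 in the lower direction, beside 2.36% and 1.46% of all genes (3.82% in all). These shares are no independent support, since the tested difference holds the 24 h arrays that chose the genes.

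The interferon-induced genes changed side or appeared between the 2 times. Ifit1 read -2.77 and -2.80 in the control line at 0 h and -5.04 and -5.37 in the knockdown-labelled line, so it was lower by 2.42 there (adjusted p = 0.00104 in limma, 1 of the 2 knockdown-labelled arrays well above background) and higher by 3.05 at 24 h. Ifit3 was lower by 1.30 at 0 h, and Mx2 by 1.14 with no knockdown-labelled array well above background there. Between 0 h and 24 h Ifit1 fell by 1.32 in the control line and rose by 4.15 in the knockdown-labelled line. Isg15 rose in both lines, by 1.25 in the control line and 3.87 in the knockdown-labelled line. Gbp2 moved by -0.05 in the control line and 2.05 in the knockdown-labelled line. Of the 37 antiviral effectors 5 were called lower and 0 higher at 0 h.

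Some of the lower genes were lower before induction and by more. Csf2 was 4.03 lower at 0 h and 2.14 lower at 24 h on the log2 scale, Ebi3 3.15 and 1.29, Plin3 3.71 and 2.79, and Eno2, a glycolytic enolase, 3.04 and 1.38. The change between the 2 times was called for Csf2, Ebi3 and Eno2 but not for Plin3 (0.93, adjusted p = 0.11 in limma). The 24 h call of Eno2 was lost without any 1 of the 4 arrays (adjusted p of 0.0942 to 0.11). Csf2, Eno2 and Plin3 were not well above background in the knockdown-labelled line at 0 h, so those 0 h differences are fitted values. Ccl2 was also lower at both times, with no knockdown-labelled array well above background at 0 h. A few genes, named after their values were seen, differed by nearly the same amount at both times. Cdk18, a kinase of the PCTAIRE class, was lower by 1.84 at 0 h and 1.89 at 24 h, and Casp1, the inflammasome protease, was higher by 1.05 and 1.03. Bhlhe40 was higher by 1.0 at 0 h and lower by 1.49 at 24 h. Slc7a11, the cystine transporter, was higher by 1.30 and lower by 1.17, and its 24 h call was lost without any 1 of the 4 arrays (adjusted p of 0.0992 to 0.139).

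**Figure D5:**
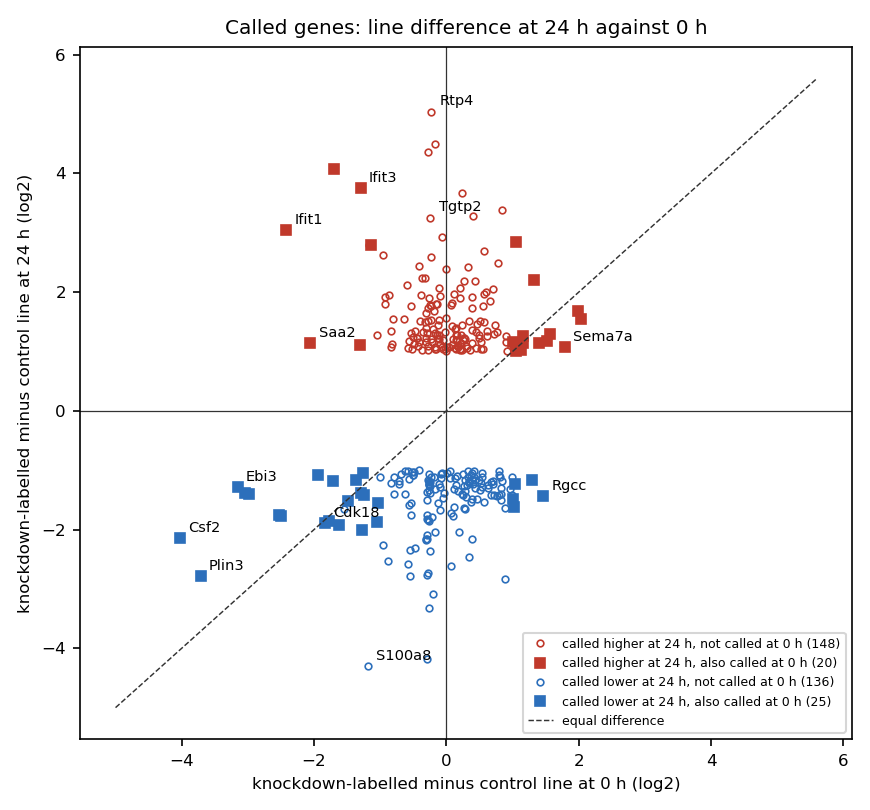
Line difference at 24 h (vertical axis, log2) against the same difference at 0 h (horizontal axis, log2) for the 329 genes called at 24 h, with filled squares for genes also called at 0 h and the dashed line marking equal differences. Ifit1 and Ifit3 lie at upper left, lower at 0 h and higher at 24 h, Csf2 and Plin3 lie at lower left, and Rtp4 and S100a8 at the top and bottom have 0 h differences that were not called.

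Markers of other cell types were read on the same arrays, and 3 of them were called, 2 higher and 1 lower. Summed over the tested members, in multiples of the array's 75th percentile, the 6 of 13 tested T cell markers were 4.12 and 5.64 in the control line and 5.26 and 6.93 in the knockdown-labelled line. The 6 of 10 tested dendritic cell markers were 49 and 47.3 against 63.1 and 62.9, and Flt3, a growth factor receptor of that list, was called higher at 24 h (1.28, adjusted p = 0.032), with 0.122 to 0.136 without any 1 of the 4 arrays. The 3 of 9 tested NK markers were 1.21 and 1.21 against 1.49 and 1.69. Klrb1c was at least 2.91-fold higher under the main processing, and its call was lost without any 1 array. Its lowest difference over the alternatives was 0.64, under its log2 bound of 1.54. The stromal marker Pdgfrb, 1 of 3 tested of 7, was called lower at 24 h (-1.17), with an adjusted p of 0.0864 to 0.117 without any 1 array, and was under 2-fold with normexp background (-0.73) and in the deposited values (-0.87). The sums of other sets were lower in the knockdown-labelled line. The 3 of 7 tested stromal markers were 10.3 and 10.2 against 6.92 and 6.98, the 3 of 7 tested megakaryocyte markers 9.85 and 9.42 against 6.44 and 6.58, and the 4 of 10 tested stem and progenitor markers 23.7 and 22.7 against 18.1 and 18.2. Their members went both ways. Above 0 in the difference were 1 of 3 stromal, 2 of 3 megakaryocyte and 2 of 4 stem and progenitor markers. At 0 h the megakaryocyte sums were 17.4 and 15.3 against 6.64 and 6.61. The stem and progenitor sums there were 37.7 and 33.7 against 16.4 and 14.5. The part of these sets in the differences above was not tested.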

How the data were processed

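Agilent mouse arrays with 1 colour (design 026655, mm9) were read with Feature Extraction 10.7.3.1, per the file headers. Each took Cy3-labelled target from 500 ng of total RNA, per the labels. The deposited scanner files hold intensity, background-subtracted by the scanner software. The values in the deposited table are log2 and have equal column medians (6.84), and the submitters' processing notes name limma without a version; their background correction and normalization are not given in the sources used here. The main values were log2 of the processed intensity minus the array's 75th percentile, without outlier spots. Kept were the 20304 probes that both arrays of some group showed well above background, and the brightest stood for its gene (16151 genes). Names came from the accession for 11618 genes, and the scanner file's own name was kept for 3864.

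A 4-group model of all 8 arrays was fitted in limma 3.58.1 (R 4.3.3), with Benjamini-Hochberg adjustment over all genes, 2-sided. It has 4 residual and 1.51 prior degrees of freedom, and the spread of the 0 h arrays enters each p. A difference is knockdown-labelled minus control, and ± is the standard error. The procedure was tested on simulated data with noise drawn separately for each array. That test held no slide effect, so it does not cover the slide deviations given next. Slide 1 held all arrays numbered 1 and slide 2 all numbered 2, per the file headers, and the slide deviations of the groups correlated with r from 0.298 to 0.413, so the number marks a shared slide.

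Members and gene lists were chosen with earlier results of these data known. Of 886 list symbols 696 were tested, 178 were filtered out and 12 were not matched. Named were the 10 highest and 10 lowest called genes measured on all 4 arrays, the 4 with the highest bound per direction, up to 3 called members per list, other list members for their role, and Tet1, Tet2, Tet3, Cebpa, Actb and Gapdh. Promoter windows are from RefSeq (GRCm38.p6); 49 of 72 named genes matched. Figures were drawn with matplotlib 3.10.9. Alternatives were normexp background, quantile and median scaling, the deposited values, other filters, the 4 induced arrays alone, the slide block, a mean over probes, a variance trend and leaving out each induced array. Some members of the lists, and 1 promoter element, are counted or searched but not reported here by name.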

Additional observations from a re-analysis of the deposited data

Results flagged for a closer look

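For 26 of the 28 genes named for the size of their difference at 24 h, the line difference at 24 h was at least 2-fold away from that at 0 h, by the test of the difference of differences in limma (2-sided, adjusted over all 16151 genes, n = 2 arrays in each of 4 groups). The same test was passed at 2-fold by 30 of the 44 genes named for their list or role, such as Rtp4 (5.28), Csf2 (1.89), Ebi3 (1.87), Bhlhe40 (-2.49) and Slc7a11 (-2.47). The values are the 24 h difference minus the 0 h difference on the log2 scale. The 26 of 28 and the 30 of 44 stand beside 3.82% of all genes tested. They are no independent support, since the tested difference holds the 24 h arrays that chose the called genes among them.

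Among the genes higher at 24 h, the shift was 5.78 for Ifit3b, 5.47 for Ifit1 and 5.05 for Ifit3, which were lower in the knockdown-labelled line at 0 h. It was 3.93 for Mx2, 3.58 for Irf7, 3.50 for Tgtp2, 2.99 for Usp18, 2.85 for Oasl2, 2.62 for Isg15 and 2.09 for Gbp2. Where the control line was not above background at 24 h, the fitted shifts were 4.67 for Ifit1bl1, 4.64 for Mx1, 3.96 for H2-T24 and 2.88 for Cmpk2. At 0 h, Ifit3b and Mx2 had no knockdown-labelled array well above background, and Ifit1 had 1. Cmpk2 had 1 knockdown-labelled and no control array there, and H2-T24 had 1 control and no knockdown-labelled array. Irf7, Rtp4 and Mx1 had none in either line, so these shifts rest in part on background signals. The adjusted p-values of these genes, Rtp4 aside, in limma ran from 0.000309 for Tgtp2 to 0.0446 for H2-T24.

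Among the genes lower at 24 h, the shift was -3.72 for P2ry2, -3.11 for S100a8, -2.80 for Ltb4r1, -2.69 for Tnfsf14, -2.23 for Clec4d, -1.87 for Lilr4b, -1.87 for Ccl7 and -1.85 for Mmp12. It was -3.89 for ENSMUST00000128960, -2.87 for Wfdc21, -2.13 for the unnamed probe A_55_P2261882 and -1.99 for Zfp983, each of which had no knockdown-labelled array above background at 24 h. Many of the lower genes were not well above background in either line at 0 h, so their 0 h difference compares background signals.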

How the results depend on the processing

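Every gene named by the rule kept its direction under the alternatives run, except Tet1, Tet2, Actb and Gapdh, which were not called. Over these genes and alternatives, 914 values stayed on their side of the threshold and 152 were no longer called. For the 168 higher and 161 lower genes, the counts were 90 and 64 with normexp background, 88 and 75 in the deposited values, 105 and 82 with no filter, and 116 and 94 among genes well above background on all 4 induced arrays. Median scaling gave 121 and 149, which moved the higher share of the calls from 51.1% to 44.8%. With the slide as a replicate block the counts were 183 and 175, and among named genes the call of H2-T24 was the one lost. The called differences of differences (381 higher, 236 lower) were 209 and 73 with normexp, 102 and 110 with median scaling, 179 and 110 in the deposited values, 95 and 26 with no filter, and 137 lower with the all-array filter. Among the lists, antiviral effectors fell from 25 to 16 with that filter. The p200 genes gave 2 with quantile normalization, 2 on the induced arrays alone and 0 with no filter. Lectins and scavenger receptors gave 1 with normexp, 2 in the deposited values and 1 with the all-array filter, granule proteins 1 with no filter, and the JAK, STAT and IRF list 1 with normexp. The cause was not tested beyond the smaller number of genes that the stricter filter leaves. Named genes that fell under 2-fold or missed the adjusted p with normexp background, beyond those given with their values above, included Mmp9 (-0.76), Itgax (-0.97), Flt3 (0.84), Klrb1c (0.83), Slc7a11 (-0.69), Wfdc21 (-0.82), Zfp983 (-0.57), ENSMUST00000128960 (-1.24) and the unnamed probe A_55_P2261882 (-0.21).

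Leaving out 1 induced array gave 127 to 163 higher and 108 to 139 lower genes, 258 to 322 and 135 to 187 differences of differences, 21 to 22 antiviral effectors, 0 to 1 p200 genes, 2 to 3 chemokines, 2 to 4 lectins, 2 to 3 JAK, STAT and IRF genes, and 1 granule protein in each fit. The lower differences of differences numbered 135 without control array 1, 154 without control array 2 and 155 without knockdown-labelled array 2. A lone array left in a group is assumed to vary like the others.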

Other observations

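Some further gene groups, chosen after their values were seen, held several calls, beside 1.04% of all genes called higher and 0.997% called lower. Phf11d, Apol9b and Trim30a are also on the antiviral list and were counted there. All 3 tested Phf11 genes were higher (Phf11a 1.97, Phf11d 1.90, Phf11b 1.57), as were 2 of 8 tested caspases (Casp4 1.76 and Casp1 1.03) and 2 of 3 tested Apol genes (Apol9b 2.69 and Apol9a 1.22). Without any 1 of the 4 induced arrays Phf11a was not called (adjusted p of 0.0548 to 0.0782 in limma), nor was Apol9b (0.0656 to 0.0806), and Apol9a was called in 2 of the 4 fits. Phf11, Apol9 and Trim30 genes are close copies within each family, so their probes may share signal. Of 39 tested Trim genes 2 were higher, Trim30c (a fitted 1.91, with no control array well above background) and Trim30a (1.05). Trim30c was called in 0 of the 4 fits (0.0542 to 0.0956). Of 8 tested imprinted genes, those expressed from the chromosome of 1 parent, 3 were lower and 0 higher. They were Plagl1 (-2.01 ± 0.11, limma adjusted p = 0.00133), the noncoding RNA H19 (-1.55 ± 0.09, adjusted p = 0.00127) and its neighbour Igf2, a growth factor (-1.21 ± 0.29, adjusted p = 0.0485). Igf2 was called in 0 of the 4 fits (0.11 to 0.19). Plagl1 was also lower at 0 h, by 1.27. Of 15 tested TNF receptors Tnfrsf23, a decoy receptor for TRAIL (-1.63), and Tnfrsf26 (-1.08) were called lower, Tnfrsf23 in 0 of the 4 fits (0.141 to 0.147) and Tnfrsf26 in 3.

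Transcripts known here only by a probe or transcript identifier were 34.8% of the genes called lower (56 of 161) and 14.3% of those called higher (24 of 168), beside 22.4% of the genes not called. Of the called genes, 45 higher ones had no control array well above background and 18 lower ones had no knockdown-labelled array well above background. A further 3 higher and 14 lower had none in either induced group and passed the filter through the 0 h arrays. Of the called genes with another kept probe, that probe was called in the same direction for 20 of 30 higher and 7 of 15 lower genes, and in the opposite direction for 0. Probes that were not kept are not counted there. Among them, further probes of Ifit3b, Tgtp2, Ifih1 and Klrb1c were well above background on 0 of the 8 arrays.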
